A study of Mus musculus with 9 samples.

Results

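The interleukin-1 (IL-1) family transcripts were examined in lung neutrophils: the ligands Il1b, Il1a, Il1f9 and Il18, the secreted antagonists Il1rn and Il18bp, the signalling receptor chains Il1r1, Il1rap and Il18rap, and the decoy receptor Il1r2. These 10 genes were found by symbol among 22064 listed genes, of which 18325 had values and 14108 were tested, all 10 among them. The data were 9 bulk RNA-seq libraries in 3 groups of 3, from neutrophils sorted out of the lungs of female BALB/c mice. MACRO Ly6Ghigh and MACRO Ly6Glow neutrophils came from mice with lung metastases at the macrometastatic (MACRO) stage after 4T1-LM3 cells, a lung-metastatic derivative of the 4T1 mouse mammary carcinoma line, had been placed in the mammary fat pad, and NL Ly6Ghigh neutrophils came from normal lung (NL). The labels give no genetic change, no drug treatment and no age for any group. The description field of the NL libraries names only the Ly6Ghigh group, so that their assignment rests on title and treatment fields. Digested lung was stained for CD45, CD11b and Ly6g before sorting, there was no Ly6Glow group from normal lung, and whether a library held 1 mouse or a pool was not stated, so p-values measure the spread between these libraries, which may be technical.

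IL-1β and IL-1α bind the receptor encoded by Il1r1, which signals only with its accessory chain, encoded by Il1rap. The antagonist encoded by Il1rn occupies that receptor without signalling, and the decoy encoded by Il1r2 binds ligand, IL-1β above all, but lacks the intracellular signalling domain. Neutrophils are a known source of IL-1β and are known to carry large amounts of the decoy. IL-18 is held in check by its soluble binding protein, and IL-36γ, the product of Il1f9, uses another ligand-binding chain together with the same accessory chain.

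Il1a and Il1b lie side by side on chromosome 2, 54.4 kb apart (GRCm38, the build named mm10 in the labels), and Il1f9 and Il1rn lie 143.3 kb apart elsewhere on that chromosome, while Il1r2, Il1r1 and Il18rap lie in that order on chromosome 1. The 250 bases before the RefSeq transcription start (GRCm38.p6) are shown for Il1b, Il1a and Il1f9, the 3 ligand genes of chromosome 2, because the neighbouring Il1a and Il1b differed in opposite directions between the MACRO groups while Il1f9 differed in the direction of Il1b. Capitals mark TATAAA, the letters of a TATA box. None of these bases lay in an annotated exon of the gene (GENCODE vM21), although the RefSeq records of Il1b and Il1a run past the start used here.
Il1b, chr2:129371140-129371389, minus strand: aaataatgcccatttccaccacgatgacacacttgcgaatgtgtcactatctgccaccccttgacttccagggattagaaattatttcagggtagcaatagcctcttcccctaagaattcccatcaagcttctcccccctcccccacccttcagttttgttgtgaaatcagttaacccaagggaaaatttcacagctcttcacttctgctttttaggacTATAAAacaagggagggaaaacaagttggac
Il1a, chr2:129309973-129310222, minus strand: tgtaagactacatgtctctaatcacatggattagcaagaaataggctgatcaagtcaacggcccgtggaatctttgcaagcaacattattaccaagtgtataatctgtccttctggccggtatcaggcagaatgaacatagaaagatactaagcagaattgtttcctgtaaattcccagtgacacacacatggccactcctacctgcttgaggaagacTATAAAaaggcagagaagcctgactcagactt
Il1f9, chr2:24186226-24186475, plus strand: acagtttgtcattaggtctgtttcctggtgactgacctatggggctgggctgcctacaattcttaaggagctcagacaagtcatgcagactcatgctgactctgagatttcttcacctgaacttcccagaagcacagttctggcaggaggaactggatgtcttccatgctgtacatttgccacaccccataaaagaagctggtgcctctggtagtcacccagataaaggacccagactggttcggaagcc

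TATAAA stood 31 to 26 bases before the start of Il1b and 32 to 27 before that of Il1a, and was not found in the window of Il1f9. It was searched on both strands and occurred in 12.4% of 32851 windows of this length. Il18 also held it, on the minus strand, in a stretch that begins 175 bases before its start. The other motifs were searched the same way. GGNNNTTCC, a loose κB pattern, was found for 5 members, in 5 of their 13 windows, and in 15.7% of all windows. TGANTCA, an AP-1 pattern, was found for 2 members, Il1a and Il1rn, in 2 of 13 windows, and in 6.75% of all. TTNCNNAA, a loose C/EBP pattern, was found for 6 members, Il1b and Il1a among them, in 8 of 13 windows, and in 36.8% of all. Some windows of Il1rn overlapped, so that a site could be counted more than once. The GGNNNTTCC matches of Il1r1 and Il18bp overlapped TTNCNNAA matches. These matches describe letters in a window, and all 10 members had at least 1 of the 13 windows, with several starts for Il1rn and Il1r1 that gene-level counts do not tell apart.

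Per length, as FPKM (fragments scaled by transcript length and library size), Il1b was the most abundant member in every group, followed by Il1r2. Ranked among all genes with values, the mean FPKM of Il1b came 20th in MACRO Ly6Ghigh, 10th in MACRO Ly6Glow and 6th in NL neutrophils. Il1r2 came 80th, 48th and 44th in the same order. In both MACRO groups the order went on as Il1f9, Il1rn, Il1rap, Il18rap, Il1a, Il18bp, Il18 and Il1r1. In NL neutrophils Il1rn stood above Il1f9 and Il1a moved up ahead of Il18rap and Il1rap. No 2 neighbours in these orders overlapped in FPKM between their libraries. At the bottom of the order, the mean FPKM of Il1r1, the signalling receptor, was 0.667 in MACRO Ly6Ghigh, 0.663 in MACRO Ly6Glow and 4.76 in NL neutrophils.

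**Figure D1:**
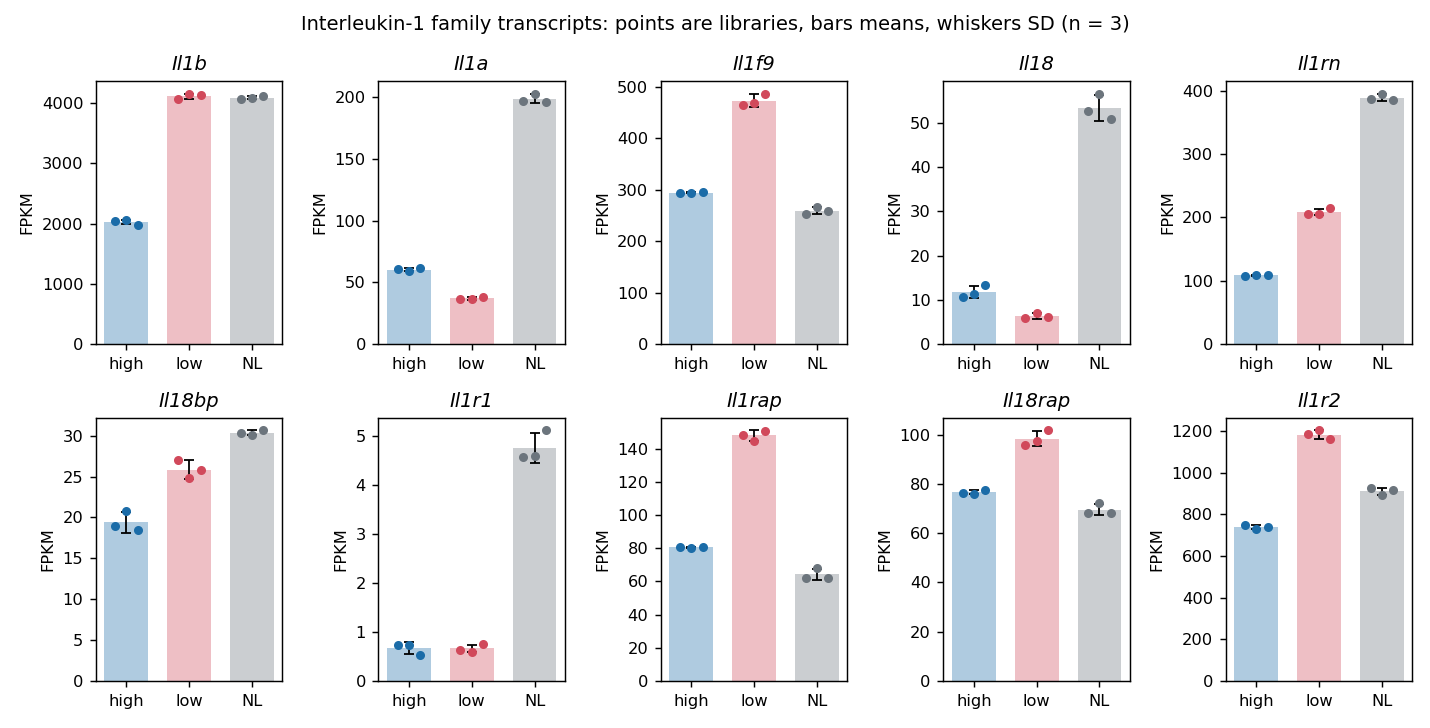
FPKM of the 10 members in each library (points), with the mean (bar) and SD (whisker) of 3 libraries, for MACRO Ly6Ghigh (high), MACRO Ly6Glow (low) and NL Ly6Ghigh (NL) neutrophils; every axis starts at 0 and has its own range. Il1b reached 4067 to 4144 FPKM in the Ly6Glow and 1985 to 2054 in the MACRO Ly6Ghigh libraries, and Il1a, Il18, Il1rn and Il1r1 were highest in NL neutrophils.

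The libraries held 15267177 to 17841807 counts. The CPM values are counts scaled to library size after TMM, the edgeR scaling that sets aside the most extreme genes, whereas the deposited FPKM are scaled by all fragments. TMM factors ran from 0.803 in MACRO Ly6Glow to 1.32 in NL libraries, so both scales are given where they part. The median log2 fold change of all tested genes was near 0 under TMM and was -0.28 (Ly6Glow over Ly6Ghigh), -0.55 (Ly6Ghigh over NL) and -0.86 (Ly6Glow over NL) under total counts. The same scaling moved the calls over all tested genes from 1310 higher and 2250 lower to 570 and 3730 in the first of these comparisons, from 3712 and 5162 to 1742 and 6847 in the second, and from 4049 and 5760 to 1330 and 7996 in the third. Transcripts of other cells differed too. Summed alveolar macrophage markers (12 genes) were 1530 to 1580 CPM in MACRO Ly6Ghigh, 326 to 347 in MACRO Ly6Glow and 1760 to 1790 in NL libraries. Chil3 alone gave 1253 to 1299, 268.4 to 288.6 and 951.3 to 981.5 CPM of these sums. Of the 12 genes, 9 were called lower in MACRO Ly6Ghigh than in NL, with a median log2 fold change of -2.09. Fibroblast markers (7 genes) reached 594 to 631 CPM in NL and at most 67.0 in the MACRO libraries, endothelial markers (8 genes) 1050 to 1140 and at most 194, and epithelial or tumor markers (8 genes) 1110 to 1240 and at most 112. T and NK cell markers reached 136 CPM at most, B cell markers 49.6, basophil and mast cell markers 45.0 and dendritic cell markers 53.6. Monocyte and macrophage markers (12 genes) were at 1480 to 1530 CPM in NL, 797 to 804 in MACRO Ly6Ghigh and 663 to 684 in MACRO Ly6Glow libraries. Summed neutrophil markers (13 genes) were 101000 to 103000, 85700 to 87300 and 23100 to 23200 CPM in MACRO Ly6Ghigh, MACRO Ly6Glow and NL libraries, and no marker of any list was at 0 in every library. S100a8 and S100a9 gave much of these sums, at 23470 and 32680 CPM in MACRO Ly6Ghigh replicate 1. In Ly6Glow over MACRO Ly6Ghigh, 4 of the 13 were called higher and 3 lower, with a median log2 fold change of 0.076. Ly6g itself was at 361.2 to 380.1 CPM in MACRO Ly6Ghigh and 384.6 to 403.2 in MACRO Ly6Glow libraries. In FPKM it was at 395.6 to 416.6 and 357.6 to 373.4, so the direction of its difference depended on scaling. In bulk libraries, fewer cells of a type and less RNA per cell cannot be told apart.

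**Figure D2:**
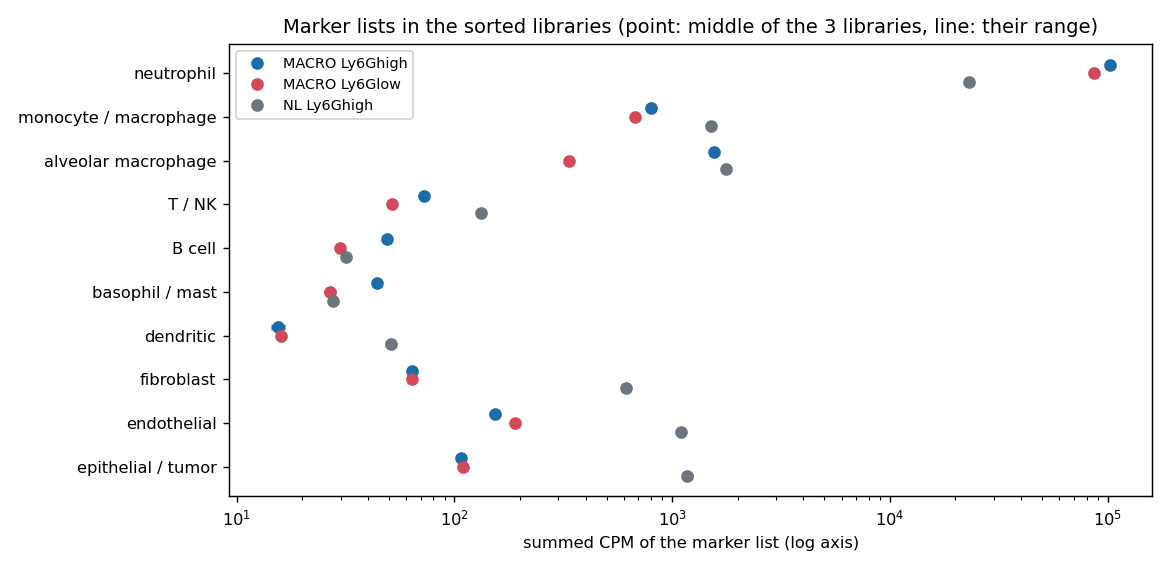
Summed CPM of 10 marker lists (log axis) in the 3 groups; the point is the middle and the line the range of 3 libraries. NL libraries held more fibroblast, endothelial and epithelial marker transcripts than either MACRO group, and alveolar macrophage markers were lowest in MACRO Ly6Glow libraries.

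MACRO Ly6Glow was first compared with MACRO Ly6Ghigh, that is, the 2 neutrophil subsets sorted from metastatic lung. Of the 10 members, 7 were higher in Ly6Glow neutrophils and 0 were lower (edgeR quasi-likelihood, Benjamini-Hochberg adjusted p of at most 0.05 and a log2 fold change beyond 0.58), where 9.29% of all tested genes were called higher and 15.9% lower. The 7 were Il1b, Il1f9, Il1rn, Il18bp, Il1rap, Il18rap and Il1r2, so ligands, antagonists, receptor chains and the decoy were all among them. The members' median log2 fold change was 0.79, against -0.041 over all tested genes. The members were chosen with earlier results of these data known, so these shares describe the set and do not test it. The count lower was also 0 with DESeq2, and with an unadjusted p, which kept the fold threshold and so could not change it. Without a fold threshold it was 2. Under total-count scaling, and with limma on the FPKM, 5 members were called higher and 2 (Il1a and Il18) lower.

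Il1b stood at 2827, 2833 and 2736 CPM in the MACRO Ly6Ghigh libraries and at 6613, 6763 and 6719 CPM in the Ly6Glow libraries. The groups were far apart, and no Ly6Glow library came near a Ly6Ghigh library. The log2 fold change was 1.26 (SE 0.026, edgeR quasi-likelihood with Benjamini-Hochberg adjusted p = 1.8e-19), and 1.02 under total counts. Il1f9, which encodes IL-36γ, was at 495.8, 495.1 and 498.5 CPM in Ly6Ghigh and 920.9, 933.4 and 966.0 CPM in Ly6Glow libraries. It rose by a log2 of 0.92 (SE 0.030, edgeR quasi-likelihood, Benjamini-Hochberg adjusted p = 1.91e-16).

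Il1a, which encodes the ligand that is active already as its precursor, went the other way. It was at 124.8, 120.7 and 126.0 CPM in Ly6Ghigh and 87.88, 89.48 and 92.32 CPM in Ly6Glow libraries. These ranges did not overlap, but the log2 fold change of -0.46 (SE 0.039, edgeR quasi-likelihood, Benjamini-Hochberg adjusted p = 1.23e-09) stayed short of the 0.58 threshold, which it passed under total counts at -0.70. Il18, whose product needs caspase-1 to mature, was at 10.76, 11.63 and 13.18 CPM in Ly6Ghigh and 7.879, 8.805 and 8.233 CPM in Ly6Glow libraries. Its log2 fold change was -0.51 (SE 0.10, edgeR quasi-likelihood, Benjamini-Hochberg adjusted p = 0.000199), and -0.75 under total counts. Markers of several other cells moved in the direction of Il1a and Il18. Called lower in Ly6Glow were 9 of 12 alveolar macrophage, 4 of 12 monocyte and macrophage, 7 of 14 T and NK cell and 6 of 6 B cell genes. The same held for 4 of 6 basophil and mast cell and 3 of 8 epithelial or tumor genes. Of 7 dendritic cell genes 1 was higher and 1 lower, and 0 of 7 fibroblast and 0 of 8 endothelial genes were called. The part of any of these markers in the differences was not tested.

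Both antagonists were higher in Ly6Glow neutrophils. Il1rn was at 275.5, 277.3 and 276.4 CPM in Ly6Ghigh and at 613.9, 620.7 and 641.7 CPM in Ly6Glow libraries. The groups were well separated, with a log2 fold change of 1.18 (SE 0.031, edgeR quasi-likelihood, Benjamini-Hochberg adjusted p = 4.7e-18). Il18bp, which encodes the soluble trap of IL-18, was at 29.71, 32.23 and 30.33 CPM against 48.57, 47.64 and 49.09 CPM. It rose by a log2 of 0.65 (SE 0.055, edgeR quasi-likelihood, Benjamini-Hochberg adjusted p = 1.3e-09), and by 0.42 under total counts, below the threshold.

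The receptor chains did not move as 1 block. Il1rap, the shared accessory chain, was at 357.9, 353.5 and 355.5 CPM in Ly6Ghigh and 758.1, 739.7 and 771.4 CPM in Ly6Glow libraries, a log2 fold change of 1.09 (SE 0.034, edgeR quasi-likelihood, Benjamini-Hochberg adjusted p = 7.55e-17). Il1r1, the chain that binds IL-1, was at 3.691, 3.66 and 2.6 CPM against 3.736, 3.537 and 4.345 CPM. Its groups overlapped, and with 42 to 62 counts a library the log2 difference of 0.22 (SE 0.17, edgeR quasi-likelihood, Benjamini-Hochberg adjusted p = 0.272) was within the spread; it was -0.015 under total counts. Il18rap, the accessory chain for IL-18, was at 371.5, 369.0 and 377.3 CPM in Ly6Ghigh and 553.0, 546.1 and 576.0 CPM in Ly6Glow libraries. These ranges did not overlap, yet its log2 fold change of 0.58 (SE 0.032) lay at the threshold: without Ly6Ghigh replicate 1, Ly6Ghigh replicate 2 or Ly6Glow replicate 3 it was 0.578, 0.577 and 0.556, below the threshold, and it was 0.35 under total counts. Il1r2, the decoy, was at 1140, 1106 and 1123 CPM in Ly6Ghigh and 2134, 2169 and 2097 CPM in Ly6Glow libraries. With a log2 fold change of 0.93 (SE 0.029, edgeR quasi-likelihood, Benjamini-Hochberg adjusted p = 1.09e-16), the decoy rose with the ligand Il1b and the antagonist Il1rn.

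**Figure D3:**
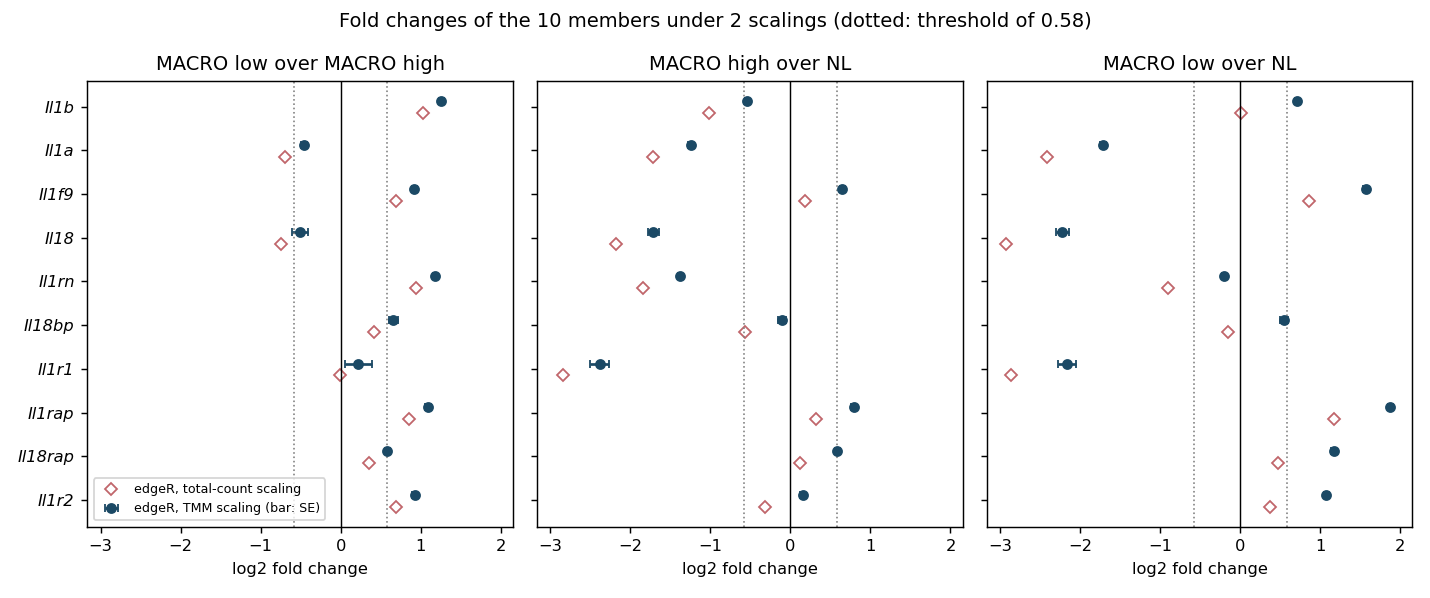
Log2 fold changes of the 10 members in 3 comparisons from edgeR under TMM scaling (filled circles, bar SE) and under total-count scaling (open diamonds, no error drawn); the dotted lines mark the threshold of 0.58. Il1b, Il1rn, Il1rap, Il1r2 and Il1f9 lay above the threshold in Ly6Glow over Ly6Ghigh under both scalings, while against NL the Il1r2 (Ly6Ghigh) and Il18bp (Ly6Glow) changes lay on opposite sides of 0 under the 2 scalings.

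MACRO Ly6Ghigh was next compared with NL Ly6Ghigh neutrophils, the same gate with and without metastasis. In MACRO Ly6Ghigh neutrophils 3 members were higher (Il1f9, Il1rap and Il18rap) and 4 were lower (Il1a, Il18, Il1rn and Il1r1). Of all tested genes 26.3% were called higher and 36.6% lower, so the members' counts were near the background shares. The members' median log2 fold change was -0.33, against -0.088 over all tested genes. The 3 higher calls depended on scaling, and under total counts 0 members were called higher and 5 lower. NL replicate 2 stood apart from the other NL libraries, with count differences 5.3 and 4.05 times sampling noise (chi-square per degree of freedom) where all other replicate pairs had 1.41 to 2.5, and without it the counts were again 3 and 4.

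Il1a had its highest values in NL neutrophils, at 293.9, 296.9 and 291.2 CPM, so that MACRO Ly6Ghigh neutrophils were lower by a log2 fold change of -1.25 (SE 0.035, edgeR quasi-likelihood, Benjamini-Hochberg adjusted p = 9.54e-19). Il18 was at 38.94, 40.75 and 37.13 CPM in NL libraries, above every MACRO library, with a log2 fold change of -1.71 (SE 0.072, edgeR quasi-likelihood, Benjamini-Hochberg adjusted p = 1.27e-15). Il1rn was at 721.4, 723.5 and 713.3 CPM in NL libraries and fell by a log2 of 1.38 in MACRO Ly6Ghigh neutrophils. The NL libraries thus held more transcript of both ligands and of the antagonist than the same gate in the metastatic lung. Il1r1 was at 17.02, 16.52 and 18.61 CPM in NL libraries, with 362 to 413 counts each. Its log2 fold change of -2.38 (SE 0.11, edgeR quasi-likelihood, Benjamini-Hochberg adjusted p = 1.52e-14) was the largest of the 10 members in this comparison in size. Markers of many other cells moved with these 4 members in MACRO Ly6Ghigh: 9 of 12 alveolar macrophage, 7 of 12 monocyte and macrophage, 7 of 7 dendritic cell, 11 of 14 T and NK cell, 7 of 7 fibroblast, 8 of 8 endothelial and 8 of 8 epithelial or tumor genes were called lower. Called higher were 13 of 13 neutrophil, 5 of 6 basophil and mast cell and 3 of 6 B cell genes. The part of any of these markers in the differences was not tested.

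Il1b itself was at 4105, 4045 and 4130 CPM in NL libraries, above all 3 MACRO Ly6Ghigh libraries. The log2 fold change of MACRO Ly6Ghigh over NL was -0.55 (SE 0.026, edgeR quasi-likelihood, Benjamini-Hochberg adjusted p = 1.3e-14), short of the threshold, and -1.01 under total counts. Il1f9 was at 312.7, 321.9 and 316.8 CPM in NL libraries, below the MACRO Ly6Ghigh libraries by a log2 of 0.65 under TMM but only 0.18 under total counts. Il1rap, at 201.6, 215.8 and 200.3 CPM in NL libraries, was likewise higher in MACRO Ly6Ghigh by 0.79 under TMM and 0.32 under total counts. Il18rap, at 246.4, 253.9 and 244.1 CPM in NL libraries, was higher by 0.59 (SE 0.033) and by 0.12 under total counts. Its call lay at the threshold here too, since without NL replicate 1 or NL replicate 3 the log2 fold change was 0.579 and 0.577. The decoy Il1r2, at 1034, 983.1 and 1018 CPM in NL libraries, differed by 0.15 under TMM and by -0.31 under total counts, so no direction can be given. Il18bp, at 33.14, 32.12 and 34.16 CPM in NL libraries, overlapped MACRO Ly6Ghigh on the CPM scale, with a log2 fold change of -0.11 (SE 0.054, edgeR quasi-likelihood, Benjamini-Hochberg adjusted p = 0.0725). Under total counts its log2 fold change was -0.57, just short of the threshold. In FPKM it was at 18.43 to 20.8 in MACRO Ly6Ghigh and 30.03 to 30.64 in NL libraries, without overlap. Both limma fits called it lower, at -0.62 (FPKM + 1) and -0.65 (FPKM + 0.1). Whether Il18bp differed thus depended on scaling.

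MACRO Ly6Glow against NL Ly6Ghigh neutrophils shared its libraries with both comparisons above and differed in gate as well as in lung. Here 5 members were higher (Il1b, Il1f9, Il1rap, Il18rap and Il1r2) and 3 lower (Il1a, Il18 and Il1r1), where 28.7% of all tested genes were called higher and 40.8% lower. Under total counts 2 members, Il1f9 and Il1rap, were called higher and 4 lower. The median log2 fold change was 0.63 for the members and -0.16 for all tested genes.

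Il1rap differed most among the higher members, by a log2 of 1.88 (SE 0.035, edgeR quasi-likelihood, Benjamini-Hochberg adjusted p = 8.54e-22), and by 1.18 under total counts. Il1f9 followed at 1.57, and 0.87 under total counts, and both held on either scale. For Il1b the call depended on the processing. It was higher by a log2 of 0.71 (SE 0.026) under TMM, and by 0.0093 under total counts, where its FPKM ranges of 4067 to 4144 in Ly6Glow and 4064 to 4115 in NL libraries overlapped. Its call was also lost at 0.52 with upper-quartile scaling and at 0.53 when at least 10 counts were required in every library, either of which left 4 members called higher. Il1r2 was higher by 1.08 and by 0.38 under total counts, and Il18rap by 1.17 and 0.47. Il18bp changed sign, with 0.55 under TMM and -0.15 under total counts. Relative to the median of all tested genes, Il1b was higher by 0.87 and Il18bp by 0.70, which would pass the threshold.

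The members that were lower than in NL stayed lower on both scales. Il18 had a log2 fold change of -2.23 (SE 0.082, edgeR quasi-likelihood, Benjamini-Hochberg adjusted p = 9.9e-17), Il1r1 of -2.16 (SE 0.12) and Il1a of -1.71 (SE 0.037). Il1rn, the antagonist, was 0.20 lower on the log2 scale under TMM, at -0.20 (SE 0.030, edgeR quasi-likelihood, Benjamini-Hochberg adjusted p = 1.78e-06), and at -0.90 under total counts. Marker genes of alveolar macrophages (11 of 12, median log2 fold change -4.82), monocytes and macrophages (8 of 12), dendritic cells (7 of 7), T and NK cells (13 of 14), fibroblasts (7 of 7), endothelial cells (8 of 8) and epithelial or tumor cells (7 of 8) were called lower here too. Called higher were 12 of 13 neutrophil and 4 of 6 basophil and mast cell genes. Of 6 B cell genes, 1 was higher and 1 lower. The part of any of these markers was not tested.

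Ratios of opposing members within a library do not depend on how libraries are scaled, and 4 of them were compared in FPKM over 3 pairs of groups. The ratio of Il1b to its antagonist Il1rn was 18.9, 18.8 and 18.2 in MACRO Ly6Ghigh, 19.9, 20.1 and 19.3 in MACRO Ly6Glow, and 10.5, 10.3 and 10.7 in NL libraries. Ligand and antagonist thus differed by nearly the same fold between the MACRO subsets, a change in the ratio of 1.06-fold, while MACRO Ly6Ghigh stood 1.77-fold and MACRO Ly6Glow 1.88-fold above NL. Il1b exceeded Il1a 33.6, 34.8 and 32.2 times in MACRO Ly6Ghigh, 112, 113 and 108 times in MACRO Ly6Glow and 20.7, 20.1 and 21.0 times in NL libraries. Of the 2 ligands of the same receptor, Il1b therefore prevailed everywhere, and 3.31 times more in Ly6Glow than in MACRO Ly6Ghigh neutrophils.

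The decoy exceeded the signalling receptor in every library. The ratio of Il1r2 to Il1r1 was 1030, 987 and 1400 in MACRO Ly6Ghigh, 1850, 2010 and 1550 in MACRO Ly6Glow and 203, 195 and 179 in NL libraries. Its group means were 5.86-fold and 9.34-fold above NL, and Il1r1 had only 42 to 62 counts a library in the MACRO groups. The ratio of Il18 to its binding protein Il18bp was 0.562, 0.55 and 0.724 in MACRO Ly6Ghigh, 0.216, 0.285 and 0.238 in MACRO Ly6Glow, and 1.73, 1.88 and 1.66 in NL libraries. The ligand was therefore the more abundant of that pair in NL neutrophils and the less abundant in both MACRO groups. No pair of groups overlapped in any of the 4 ratios. Each of the 12 exact two-sided permutation tests gave p = 0.1 (Benjamini-Hochberg adjusted 0.1), the smallest that 3 against 3 libraries allow, so this design cannot reach 0.05. Markers of other lung cells also differed between NL and MACRO libraries, and their part in these ratios was not tested.

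**Figure D4:**
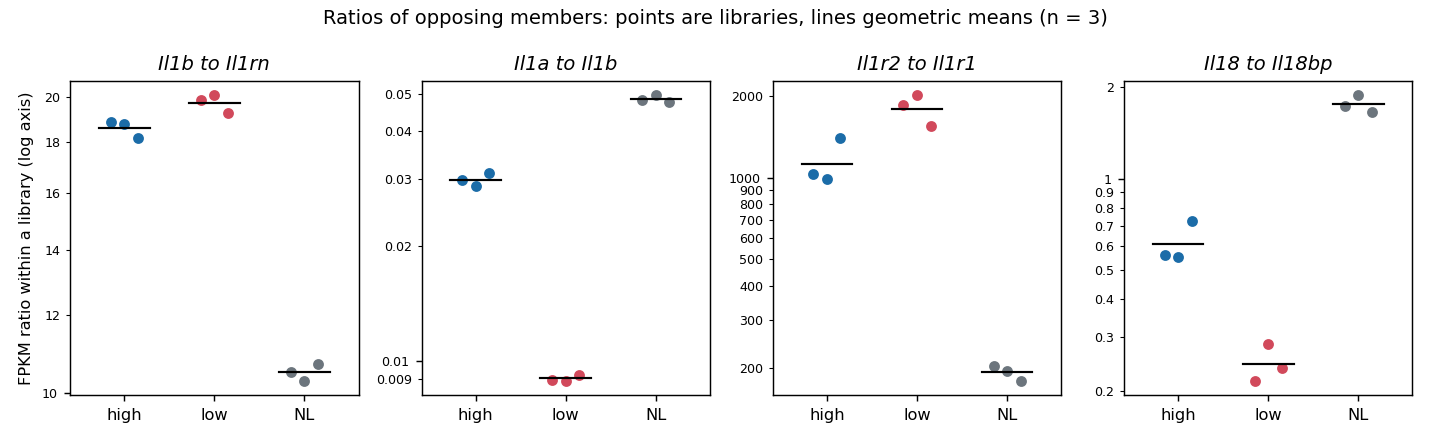
FPKM ratios within each library (points; line, geometric mean of 3 libraries) on log axes for MACRO Ly6Ghigh (high), MACRO Ly6Glow (low) and NL Ly6Ghigh (NL) neutrophils. The geometric mean of Il1b to Il1rn was 18.6, 19.7 and 10.5, and that of Il1r2 to Il1r1 was 1120, 1790 and 192.

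The wider pathway was described from lists chosen with earlier results known. Of 11 further IL-1 family ligands and receptors 8 had values and 5 were tested. Among them 0 were higher and 1 lower in MACRO Ly6Glow over Ly6Ghigh, 0 and 3 in Ly6Ghigh over NL, and 1 and 3 in Ly6Glow over NL. For this and the next lists the shares of all tested genes called higher and lower were 9.29% and 15.9%, 26.3% and 36.6%, and 28.7% and 40.8% in these 3 comparisons, and 5 genes are too few to set against them. Sigirr, a receptor that restrains IL-1 family signalling, was at 1.06 ± 0.091 FPKM in Ly6Glow and 1.99 ± 0.15 in MACRO Ly6Ghigh neutrophils (SD, n = 3; log2 fold change -0.67, SE 0.18). Il33, an alarmin of stromal and epithelial cells, was at 5.34 ± 0.62 FPKM in NL and 0.34 ± 0.14 in MACRO Ly6Ghigh neutrophils (SD, n = 3). Il18r1, the ligand-binding partner of Il18rap, was higher in Ly6Glow than in NL by a log2 of 0.70 under TMM and by 0.0034 under total counts.

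Of 26 genes of intracellular IL-1 receptor signalling, 3 were higher and 0 lower in MACRO Ly6Glow over Ly6Ghigh neutrophils, with a median log2 fold change of 0.20. The share called higher, 11.5%, was near the 9.29% of all genes, and under total counts 0 were higher and 2 lower. Irak2, a kinase-family adaptor of the receptor complex, had the largest increase, from 34.0 ± 0.7 to 50.5 ± 1.2 FPKM (SD, n = 3; log2 0.80, SE 0.037, and 0.56 under total counts, below the threshold). Against NL, 11 were higher and 3 lower in Ly6Ghigh (42.3% and 11.5%, beside 26.3% and 36.6% of all genes) and 13 and 2 in Ly6Glow neutrophils (50% and 7.69%, beside 28.7% and 40.8%). Under total counts the balance turned, to 3 higher and 6 lower in Ly6Ghigh and 3 and 7 in Ly6Glow neutrophils. Irak4, the kinase that starts the signal, had the largest increase under TMM in both, at a log2 of 1.60 (SE 0.047) in Ly6Ghigh and 1.71 (SE 0.048) in Ly6Glow neutrophils, and 1.13 and 1.01 under total counts. Ecsit, an adaptor that binds Traf6, had the largest decrease, at -1.23 and -1.64, and -1.70 and -2.34 under total counts.

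Maturation and release of the ligands depends on inflammasomes and proteases, and 19 such genes were tested. In MACRO Ly6Glow over Ly6Ghigh neutrophils 4 were higher and 6 lower (21.1% and 31.6%, beside 9.29% and 15.9% of all genes), and 2 and 6 under total counts. Nlrp3, the inflammasome sensor behind caspase-1 activation, rose from 66.1 ± 0.28 to 134 ± 1.1 FPKM (SD, n = 3; log2 1.26, SE 0.032). Elane, neutrophil elastase, a protease of early granulocytic precursors that can cleave IL-1 family ligands, was at 1.18 ± 0.43 FPKM in Ly6Glow and 9.88 ± 0.69 in Ly6Ghigh neutrophils (SD, n = 3; log2 fold change -2.83, SE 0.19). Against NL, 9 were higher and 3 lower in Ly6Ghigh (47.4% and 15.8%, beside 26.3% and 36.6%) and 11 and 3 in Ly6Glow neutrophils (57.9% and 15.8%, beside 28.7% and 40.8%), and under total counts 5 and 5 and 7 and 6. Prtn3, proteinase 3, had the largest increase in both, with log2 fold changes of 5.6 and 3.35, and 5.14 and 2.65 under total counts. The largest decreases were those of P2rx7, the ATP-gated channel, in Ly6Ghigh (-1.36, and -1.83 under total counts) and of Capn2, a calpain, in Ly6Glow neutrophils (-1.95, and -2.65 under total counts).

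Genes known to be induced by IL-1 in other cells formed the last list, of which 27 of 28 were tested. In MACRO Ly6Glow over Ly6Ghigh neutrophils 13 were higher and 1 lower (48.1% and 3.7%, beside 9.29% and 15.9% of all genes), with a median log2 fold change of 0.51, and under total counts 9 were higher and 3 lower. Csf3, which encodes the growth factor G-CSF, had the largest increase, from 1.53 ± 0.21 to 3.74 ± 0.36 FPKM (SD, n = 3; log2 1.51, SE 0.17). The 1 gene lower was Bcl2a1a (-0.76, SE 0.14), a survival gene with near-identical copies between which reads may be split, so its value is uncertain. Against NL 6 were higher and 13 lower in Ly6Ghigh (22.2% and 48.1%, beside 26.3% and 36.6%) and 11 higher and 9 lower in Ly6Glow neutrophils (40.7% and 33.3%, beside 28.7% and 40.8%). Under total counts these counts were 4 and 17, and 5 and 11. Saa3, an acute-phase protein, reached 883 ± 23 FPKM in Ly6Ghigh and 1390 ± 51 in Ly6Glow against 51.1 ± 3.4 in NL neutrophils (SD, n = 3). Icam1, an adhesion molecule that endothelial cells also make, was at 219 ± 4.6 FPKM in NL and 34.6 ± 0.25 in MACRO Ly6Ghigh neutrophils (SD, n = 3).

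The genes whose log2 CPM ran most like that of Il1b over the 9 libraries, among 4726 genes of at least 10 FPKM, were Dusp16 (Pearson r = 0.9989), Bcl2l11 (0.9989) and A530064D06Rik (0.9985). Bcl2l11, which encodes the pro-apoptotic protein Bim, was at mean levels of 62.6, 128.5 and 123.0 FPKM in MACRO Ly6Ghigh, MACRO Ly6Glow and NL neutrophils. For Il1r2 they were Neurl3 (0.9994), Srpr (0.9987) and Rab7 (0.9984). Among the members, Il18bp was the most like Il1b (0.95) and Il1f9 the most like Il1r2 (0.955). On this TMM scale Il1a and Il18 had negative r with Il1r2 (-0.79 and -0.76) and weaker negative r with Il1b (-0.33 and -0.29). Yet Il1b, Il1a and Il18 were all lower in MACRO Ly6Ghigh than in NL (log2 fold changes -0.55, -1.25 and -1.715). Correlations under total counts were not computed, so no opposition of Il1a or Il18 to Il1b can be read from these values. Il1r1, below 10 FPKM, was not compared. These values describe 9 libraries that fall into 3 groups and share their scaling.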

How the data were processed

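The authors sequenced strand-specific libraries and deposited 2 values per gene and library. The first, the authors' estimated count, was not normalized and was rounded here (37.9% of all values in genes with values were whole within 1e-09, zeros included, and 30.1% of those above 0). The second, the FPKM deposited by the authors, was scaled by transcript length and by all fragments. The labels name the build mm10. Aligner and counter are not given in the sources used here. The members and gene lists were chosen with earlier results of these data known.

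Counts of the 9 libraries were fitted in 1 model of 3 groups with edgeR 4.0.16 (TMM, filterByExpr by group, quasi-likelihood test, Benjamini-Hochberg) in R 4.3.3, and 14108 of 18325 genes were tested. Calls needed both an adjusted p no higher than 0.05 and a log2 fold change beyond 0.58 in either direction. SE is the log2 fold change over the square root of F. The common biological coefficient of variation was 0.0346. The script was tested on simulated data. Within-library FPKM ratios were compared by exact permutation. All replicate pairs differed beyond sampling noise, so each library counted once, although this does not show that they came from separate mice. Every column of values was used.

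Of each pathway list, the called gene with the largest increase and the largest decrease was named per comparison, at a mean FPKM of at least 1. Of genes like Il1b and Il1r2, the top 3 by Pearson r were named. Alternatives were DESeq2 1.42.0, limma 3.58.1 on log2(FPKM + 1) and log2(FPKM + 0.1), other scalings and filters, other thresholds, a replicate block and leaving out each library. Total-count scaling, of lists too, and changes relative to the median of all genes were added after seeing the data. Promoter windows came from RefSeq (GRCm38.p6).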

Additional observations from a re-analysis of the deposited data

How the results depend on the processing

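For Ly6Ghigh over NL, members called higher numbered 1 (not 3) with upper-quartile scaling or at least 10 counts in every library, and 0 with total counts, a fold threshold of 1 and both limma fits on FPKM. For Ly6Glow over Ly6Ghigh, members called lower numbered 2 (not 0) with total counts, no fold threshold and both limma fits, and members called higher numbered 3 (not 7) at a fold threshold of 1. For Ly6Glow over NL, members called higher numbered 2 (not 5) with total counts and both limma fits. They numbered 6 with DESeq2, with DESeq2 size factors, without a fold threshold and relative to the median of all tested genes. With DESeq2 and with its size factors the added member was Il18bp, at 0.636 and 0.637. FPKM carry total-count scaling. The cause of these shifts was not tested. The log2 fold change of Il1r2, Ly6Ghigh over NL, reversed to -0.041 (upper quartile), -0.023 (at least 10 counts), -0.31 (total counts), -0.30 (limma, FPKM + 1) and -0.30 (limma, FPKM + 0.1). Il1r1, Ly6Glow over Ly6Ghigh, reversed to -0.015 (total counts) and -0.0014 (limma, FPKM + 1). Il18bp, Ly6Glow over NL, reversed to -0.15 (total counts), -0.22 (limma, FPKM + 1) and -0.23 (limma, FPKM + 0.1). Leaving out 1 library gave 6 to 7 higher calls for Ly6Glow over Ly6Ghigh and 2 to 3 for Ly6Ghigh over NL, and changed no other count of member calls. All 12 ratios kept their direction with counts in place of FPKM and without any 1 library. Same-numbered libraries did not deviate together (correlations -0.0683 to 0.0766), which does not exclude that they came from the same mice. With a replicate block the member counts were the same 7 and 0, 3 and 4, and 5 and 3. Calls over all genes went from 3560 to 3522, 8874 to 8856 and 9809 to 9775. At 42 to 62 counts a library, Il1r1 allowed only coarse comparisons between the MACRO groups.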
